A study of Mus musculus with 2 samples.

Results

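The keratins that mouse epidermis switches on when it is wounded, Krt6a, Krt6b, Krt16, Krt17 and Krt75, were followed in epidermis in which SOX11 had been induced for 12 h. They were taken as every non-control probe of both arrays whose gene name is one of these 5, which gave 6 probes of 5 genes among 55676 probes with 34820 names that were measured on both arrays. Krt6b had 2 probes and the other 4 genes had 1 each. All 6 were well above background in the control and in the SOX11-induced channel of both arrays.

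Each of the 2 arrays, a 2-colour microarray, compared the epidermis of a SOX11-induced pup with that of a littermate control, at postnatal day 4.5 on the FVB/N strain. Controls carried K14-rtTA, a transgene whose product, made in keratinocytes by the Krt14 promoter, becomes an activator when doxycycline is present, and SOX11-induced pups carried K14-rtTA and TRE-Sox11-FLAG, the transgene that this activator switches on. Both pups of a pair received doxycycline (Dox) for 12 h, so that the activator and the drug were shared by both groups. Per the methods, the pups of a pair were of matched sex and the epidermis was separated from dorsal skin with dispase, and how much hair follicle such a sheet holds is not given. Pair 1 and pair 2 are the 2 biological replicates, and the 4 epidermal samples are called control and SOX11-induced of pair 1 or pair 2.

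The control was labelled with Cy3 and the SOX11-induced sample with Cy5 on both arrays, per the labels, so that dye and genotype cannot be told apart within a probe. The methods describe a colour swap that these labels do not show, and the 2 arrays' ratios correlated at 0.529 (Pearson, across all 55676 probes, which are not independent). Between 37.5% and 42.6% of spots were well above background in a channel. The 2 probes named Sox11 were below background in every channel (log2 ratios between -0.39 and 0.10). They begin at bases 7983 and 7437 of the transcript, while per the methods the transgene was built from the Sox11 open reading frame. Where that frame ends was not analysed here, and these probes give no check of the induction. The epidermal keratins Krt5, Krt14, Krt1 and Krt10 were above background in every sample. In bulk tissue, fewer cells of a type and less RNA per cell cannot be told apart.

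Keratins form the intermediate filaments of epithelial cells as pairs of a type I and a type II protein. Krt6a, Krt6b and Krt75 are type II keratins and Krt16 and Krt17 are type I keratins. In resting skin they are used mainly by the hair follicle, Krt75 in the companion layer and Krt6a, Krt16 and Krt17 in the outer root sheath and companion layer, and the interfollicular epidermis takes up Krt6, Krt16 and Krt17 at wound edges and in inflamed skin. Krt6 and Krt16 are the usual markers of such activated keratinocytes.

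The sequences of the probes are shown because 3 probes stand for Krt6 transcripts that are close copies of one another, and because 2 probes hold the poly(A) signal of their transcript. For the probe shared by Krt6a and Krt6b the whole sequence is given, and for the others a stretch of 30 bases, with AATAAA, the usual poly(A) signal, in capitals.
Krt6a: agcaagaagagctacaggcagtgaattctg
Krt6b-only probe: cttgtgacaacacagtcattagtcctgtgc
Shared Krt6a/Krt6b probe: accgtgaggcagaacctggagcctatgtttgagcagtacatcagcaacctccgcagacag
Krt75: ggcaaaaacatccaatgttggaaggtaaac
Krt16: tggtggtaggctAATAAAgctttttggttg
Krt17: ttctgaacactgaAATAAAtgaccatggtg
On build mm9, as the array files give it, the Krt6a probe lies at chr15:101520862-101520921, the shared probe at chr15:101509450-101509509, the Krt6b-only probe at chr15:101506492-101506551 and the Krt75 probe at chr15:101393774-101393833. The Krt16 probe lies at chr11:100107408-100107467 and the Krt17 probe at chr11:100117535-100117594, 10.1 kb away. All 6 are on the minus strand. The shared probe begins at base 645 of its transcript and its annotation lists a transcript of Krt6a and one of Krt6b. The Krt6b-only probe begins at base 2139, the Krt6a probe at base 1695, the Krt16 probe at base 1502, the Krt17 probe at base 1447 and the Krt75 probe at base 3208. Exon and UTR boundaries on mm9 were not analysed here. No 2 of the 3 Krt6 probes share more than 21 of their 60 bases without gaps or a run longer than 6 bases, so that each reads a different stretch of these transcripts.

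Krt16 rose in both pairs by a similar amount, and Krt6a rose in both pairs by unequal amounts. Krt17, Krt75 and the Krt6b-only probe went opposite ways in the 2 pairs and passed no test. None of the 6 probes was called changed, which required an adjusted p under 0.05 in the limma fit with a mean log2 ratio past 1.5. Of all probes, 0.366% were called higher and 0.0862% lower at that threshold. Past the adjusted p alone stood 2 of the 6, Krt6a and Krt16, both higher, beside 2.99% of all probes higher and 1.41% lower. Among the 19095 probes above background in every channel, the shares called were 0.796% and 0.215%, and those past the adjusted p were 6.03% and 3.25%. The log2 cut is that of the paper's methods. Its figure legend for these arrays gives a fold change above 1.5 instead. With 1.5 read as a linear fold, Krt6a and Krt16 would both be called. The share of all probes past that linear cut was not counted. With 2 pairs, each p-value draws on the spread of all probes (8.34 prior degrees of freedom), and the spread between pairs of 3 of the 6 was larger than their mean.

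**Figure D1:**
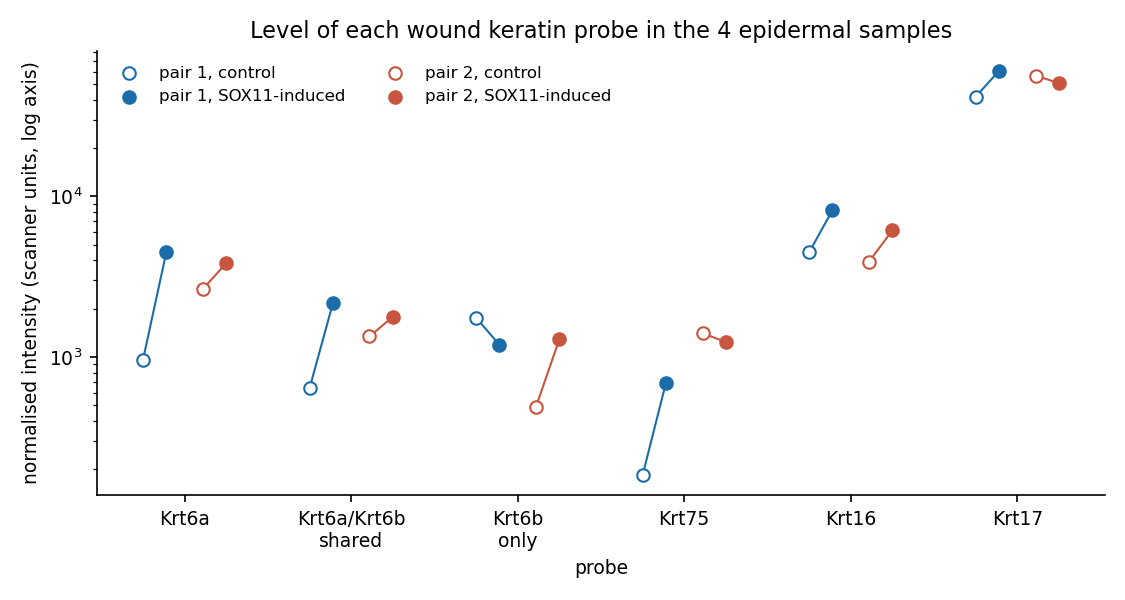
Level of each of the 6 probes (normalised intensity in scanner units, log axis) in the control (open) and SOX11-induced (filled) sample of pair 1 (blue) and pair 2 (red), with a line joining the pair. Krt16, Krt6a and the shared probe were higher in both SOX11-induced samples than in both controls. The control of pair 1 was the lowest sample for Krt6a, the shared probe, Krt75 and Krt17.

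Krt16, a type I partner of Krt6 in activated keratinocytes, had normalised intensities of 4490 and 3934 scanner units in the controls of pair 1 and pair 2, and of 8217 and 6156 in the SOX11-induced samples. Both SOX11-induced samples were above both controls, and the groups did not overlap. Its log2 ratio was 0.87 in pair 1 and 0.65 in pair 2, which averages 0.76 ± 0.160 (SD over n = 2 pairs; limma's adjusted p = 0.0267). This is a 1.83-fold and a 1.56-fold higher level, well under the threshold of 1.5 on the log2 scale. The difference of 0.226 between the pairs was ordinary: 40.4% of the probes above background differed by as much. Its mean ratio stood at the 94.6th percentile of those probes. The adjusted p of Krt16 was past 0.05 in 7 of 9 other settings of the processing, and the exceptions were the scanner software's processed signals (0.252) and the fit without pairs (0.151).

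Krt6a, the type II keratin most used as a marker of wounded epidermis, had 960 units in the control of pair 1 and 2656 in that of pair 2, against 4492 and 3843 in the SOX11-induced samples. The groups did not overlap, and the control of pair 1 stood well below the other 3 samples. The log2 ratios were 2.23 and 0.53, or 4.68-fold and 1.45-fold, which averages 1.38 ± 1.20 (n = 2; limma's adjusted p = 0.0421). The ratio of pair 2 alone was within the reach of many probes, at the 90.7th percentile of those above background, while that of pair 1 was at the 99.4th. Without pair 1 the value was 0.53, and without pair 2 it was 2.23. The adjusted p of Krt6a missed 0.05 in 5 of 9 other settings and ranged from 0.000584 to 0.479, so that passing it depended on the setting.

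The shared Krt6a/Krt6b probe, which reads transcripts of both genes, followed Krt6a. Its intensities were 638 and 1343 units in the controls and 2156 and 1779 in the SOX11-induced samples of pair 1 and pair 2, again without overlap and with the control of pair 1 lowest. The log2 ratios were 1.76 and 0.41 (mean 1.08 ± 0.955, n = 2; adjusted p = 0.0554, limma), just outside the threshold. The distance between its 2 ratios and those of Krt6a was 0.487 on the log2 scale.

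The Krt6b-only probe went the other way. It had 1759 units in the control of pair 1 and 490 in that of pair 2, against 1191 and 1289 in the SOX11-induced samples. The control of pair 1 was its highest sample and the control of pair 2 its lowest, so that the SOX11-induced samples lay between them. Its log2 ratios were -0.56 and 1.40, which averages 0.42 ± 1.38 (n = 2; limma's adjusted p = 0.542). Its distance was 2.92 from Krt6a and 2.52 from the shared probe that is also named Krt6b. The 2 probes named Krt6b differed by 3.31 in how pair 1 compared with pair 2, and no other of the 3371 genes with several probes above background had probes so far apart. The median of those genes was 0.196. A level for Krt6b as 1 gene was therefore not given.

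**Figure D2:**
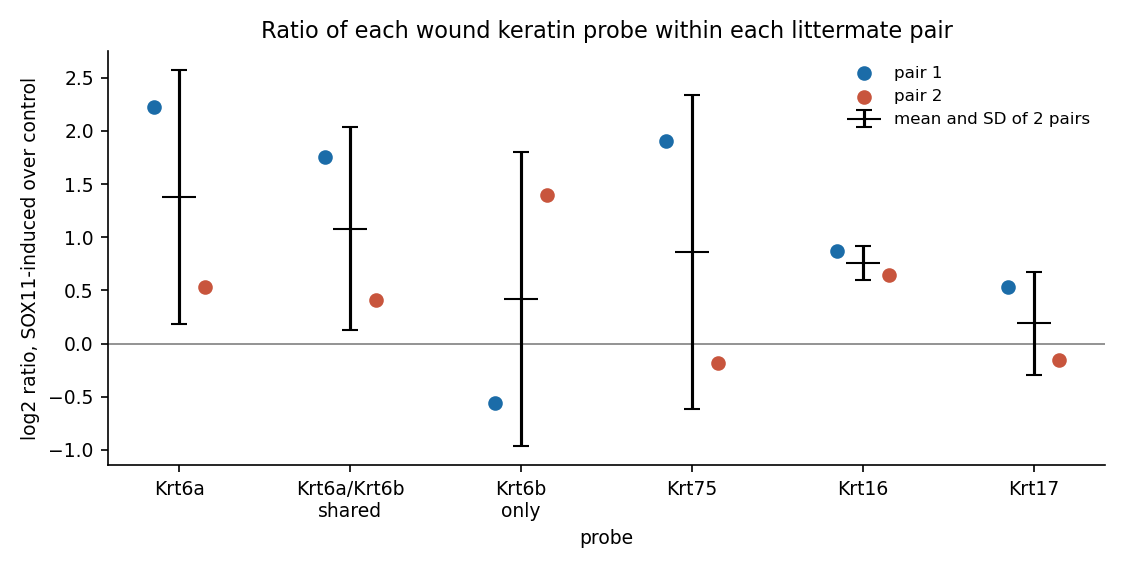
Log2 ratio of SOX11-induced over control for each probe in pair 1 (blue) and pair 2 (red), with the mean and SD of the 2 pairs (black). The pairs lie close together for Krt16 (0.87 and 0.65) and on opposite sides of 0 for the Krt6b-only probe (-0.56 and 1.40), Krt75 (1.91 and -0.18) and Krt17 (0.53 and -0.15).

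Krt75, the type II keratin of the companion layer, had 184 units in the control of pair 1 and 1405 in that of pair 2, against 689 and 1240 in the SOX11-induced samples. The control of pair 1 stood apart and the other control was the highest sample, so that the groups overlapped. The log2 ratios were 1.91 and -0.18, which averages 0.86 ± 1.48 (n = 2; limma's adjusted p = 0.225). The difference of 2.09 between the pairs was as large in only 0.539% of the probes above background.

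Krt17, a type I keratin of the outer root sheath and of wound edges, had 41857 and 56587 units in the controls and 60539 and 50905 in the SOX11-induced samples. One SOX11-induced sample was the highest and the other lay between the controls. The log2 ratios were 0.53 and -0.15, which averages 0.19 ± 0.484 (n = 2; limma's adjusted p = 0.605). No spot of the 6 probes was saturated on either array, and the SD of the pixels within a spot was 9.0% to 25.6% of its mean.

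Both SOX11-induced levels were above both control levels in 3 of the 6 probes, Krt6a, the shared probe and Krt16. This held for 24.5% of all probes and for 29.0% of those above background in every channel. The ratio was positive in both pairs for the same 3 probes, as it was for 33.4% of all probes and 39.1% of those above background. It had opposite signs in the other 3, as it had in 34.8% and 25.4%. The pairs differed by 1 or more on the log2 scale in 4 of the 6 (Krt6a, both Krt6b probes and Krt75), against 1.44% of all probes and 2.25% of those above background in every channel.

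For 5 of the 6 probes, all but Krt16, the 2 controls differed more from each other than the 2 SOX11-induced samples did. The share of all probes where this held was not counted. Among probes above background in every channel, 0.503% had controls as far apart as those of Krt75. For Krt6a this share was 1.74%, for the shared probe 2.75% and for the Krt6b-only probe 1.22%. For Krt17 it was 17.4%, so that its control difference was not unusual. The control of pair 2 had 2.77 times the Krt6a level of the control of pair 1, 2.10 times that of the shared probe and 7.65 times that of Krt75, but 0.279 times that of the Krt6b-only probe. The SOX11-induced samples of the 2 pairs stood closer together, with pair 2 at 0.856 times pair 1 for Krt6a, at 0.825 for the shared probe, at 1.08 for the Krt6b-only probe and at 1.80 for Krt75. For Krt16 the corresponding folds were 0.876 in the controls and 0.749 in the SOX11-induced samples, and for Krt17 they were 1.35 and 0.841. The control of 1 pair and that of the other differ in pup and array at once, which cannot be told apart. Whether the 2 pairs came from different litters is not given. Levels set across arrays also depend on the scaling between arrays.

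**Figure D3:**
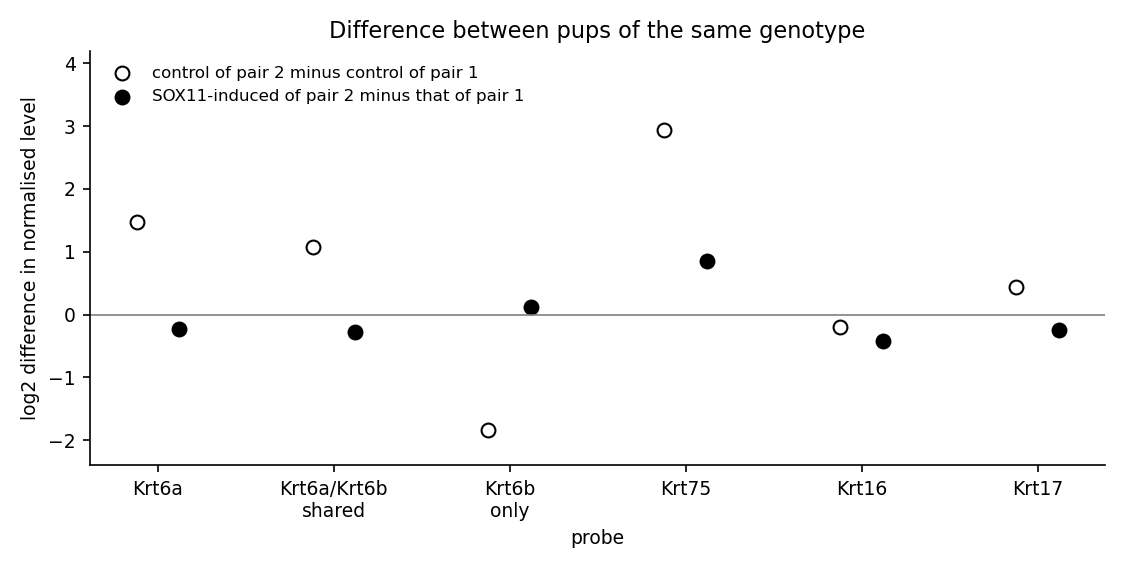
Difference in normalised level (log2) between the 2 controls (open, pair 2 minus pair 1) and between the 2 SOX11-induced samples (filled, pair 2 minus pair 1) for each probe. The controls differed by 2.94 for Krt75, 1.47 for Krt6a and -1.84 for the Krt6b-only probe, and the SOX11-induced samples by 0.85 or less in size for every probe.

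All hair shaft genes and 9 of the 10 inner root sheath genes listed were higher in the control of pair 2 than in that of pair 1. So were Krt6a, the shared probe, Krt75 and Krt17, while Krt16 and the Krt6b-only probe were lower there. The 14 hair shaft genes of a fixed list, all above background in every channel, summed to 38661 units in the control of pair 1, 184055 in the SOX11-induced sample of pair 1, 336592 in the control of pair 2 and 270335 in the SOX11-induced sample of pair 2. Each of the 14 was higher in the control of pair 2 than in that of pair 1, by 2.47-fold to 11.1-fold, and their median log2 ratio was 2.17 in pair 1 and -0.34 in pair 2. The 10 inner root sheath genes summed to 87005, 270261, 402984 and 310897 units in the same order of samples, with median log2 ratios of 1.61 and -0.32. The control of pair 1 was thus the lowest sample for both lists, as it was for Krt6a, the shared probe, Krt75 and Krt17. The part of follicle content in those ratios was not tested.

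The 12 genes of the outer root sheath and follicle epithelium, of which 7 were above background in every channel, followed the order of the hair shaft list in part. Lhx2, a factor of follicle progenitors, had 188 and 1025 units in the controls and 360 and 509 in the SOX11-induced samples, and Sox9, a factor of the outer root sheath, had 220 and 500.3 in the controls and 270.0 and 330 in the SOX11-induced samples. For both, the control of pair 1 was the lowest sample and that of pair 2 the highest. Lrig1 and Barx2, brighter than both, did not have this order. Lrig1 had 1154 and 1405 units in the controls and 1176 and 1138 in the SOX11-induced samples. Barx2 had 670 and 517 in the controls and 378 and 380 in the SOX11-induced samples. The control of pair 2 was higher than that of pair 1 in 9 of the 12 genes, with a median fold of 1.19, and the median log2 ratios of the list were 0.07 in pair 1 and -0.35 in pair 2. The sums of the list, 127701, 138142, 119189 and 113619 units, were nearly all Krt79, which alone had 124421 units in the control of pair 1, and say little of the other members. Lgr5, Cd34, Shh, Tcf7l1 and Calb1 were dim, and among them 1 probe of Lgr5 passed the adjusted p downward (mean -1.31, adjusted p = 0.0212) while its other probe had 0.29 (adjusted p = 0.347).

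The 7 dermal fibroblast genes, 5 of them above background, summed to 2611, 1420, 2160 and 1955 units, with a median log2 ratio of 0.23. Of them, 2 passed the adjusted p, Dcn at -0.79 and Thy1 at -1.29, beside 1.78% of all genes lower. Col1a1, Col1a2 and Col3a1 were lower in pair 1 and higher in pair 2, with means of 0.37, 0.49 and 0.37, and did not pass. The 8 immune genes summed to 16329, 12785, 6576 and 5401 units and the 6 melanocyte genes to 9726, 12798, 7630 and 7377. Both immune sums were higher in pair 1 than in pair 2, whatever the genotype, and the part of these cells in the keratin ratios was not tested.

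Set beside the rest of the family, Krt75 had ratios like those of hair keratins in both pairs, and Krt6a and the shared probe had such ratios in pair 1. In pair 2, Krt6a (0.53) and the shared probe (0.41) were above each hair shaft and inner root sheath keratin probe above background. Of these, Krt26 (0.40) came nearest, and the shared probe hardly differed from it. The other 47 keratin genes had 62 probes, 46 of them above background in every channel, and the median log2 ratio of those 46 was 1.34 in pair 1 and -0.21 in pair 2, against 1.31 and 0.47 for the 6 wound keratin probes. Pair 1 was higher than pair 2 by 1 or more in 26 of the 62 other probes and in 3 of the 6, and the Krt6b-only probe was the only one of the 68 where pair 2 was higher by 1 or more. None of the 62 was called changed, and 2 passed the adjusted p, both lower.

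**Figure D4:**
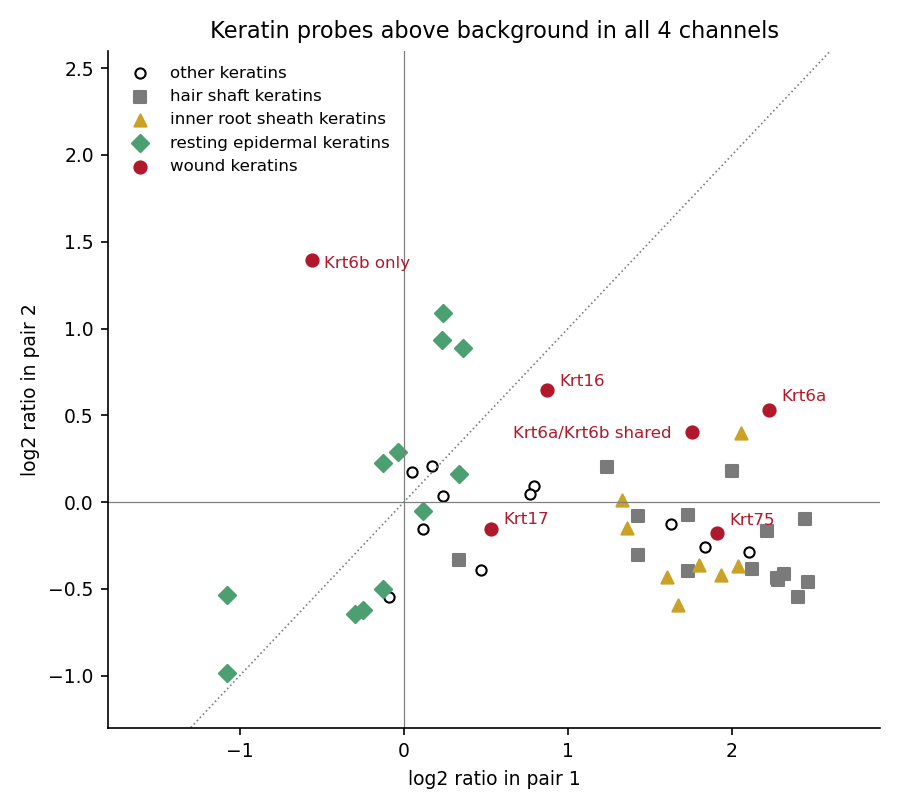
Log2 ratio in pair 1 (horizontal) and in pair 2 (vertical) of each keratin probe above background in all 4 channels, by group, with equal ratios on the dotted line. Krt75 lies with the hair shaft and inner root sheath keratins. Krt6a and the shared probe lie at like pair 1 ratios (1.76 or more) and above those keratins in pair 2, the shared probe barely above Krt26 (0.40). Krt16 lies near the dotted line, and the Krt6b-only probe stands alone at the upper left.

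The keratin whose ratios in the 2 pairs were nearest to those of Krt6a was Krt26, an inner root sheath keratin, at a distance of 0.219 on the log2 scale (2.05 and 0.40), followed by the hair keratins Krt36 (0.418) and Krt33a (0.668). Nearest to the shared probe, the brighter probe named Krt6b, were Krt26 (0.297), Krt36 (0.334) and Krt85 (0.479), a hair shaft keratin. Nearest to Krt75 were Krt82 (0.109), a hair cuticle keratin, Krt85 (0.207) and Krt71 (0.213), an inner root sheath keratin. Krt16 had no close neighbour, with Krt7 (0.561), Krt1 (0.567) and Krt36 (0.575) at more than 0.5. For Krt17 they were Krt13 (0.245), Krt85 (0.269) and Krt8 (0.310). Probes of Krt36 and of Krt85 differed from one another, and the one nearest to each member was taken. This likeness rests on 2 ratios per probe and is a description.

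The keratins of resting epidermis, the layer type that wound keratins join or replace in injured skin, showed no common direction. The ratio was positive in both pairs for 4 of the 10, with Krt1 and Krt10 among them. It was negative in both for another 4, with Krt5 and Krt14 among them. Of the 10, none passed the adjusted p upward (3.52% of all genes did) and 2 passed it downward (1.78% of all genes did), with a median log2 ratio of 0.04. Of probes above background in every channel, 6.03% passed it upward and 3.25% downward. Krt15, a keratin of basal cells, fell by 1.08 and 0.98 on the log2 scale (mean -1.03 ± 0.0664, n = 2; adjusted p = 0.00573, limma). Krt77, a suprabasal keratin, fell by 1.08 and 0.54 (mean -0.81 ± 0.382; adjusted p = 0.0337). Under median centring both stayed negative and missed the adjusted p (-0.27 and -0.14, adjusted p = 0.216 and 0.573), with -0.80 and -0.67 relative to the median of probes above background. The probes with the brightest spots in this list were those of Krt79, Krt5 and Krt10, with mean log2 ratios of 0.03, -0.44 and 0.58 and adjusted p-values of 0.929, 0.165 and 0.119.

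Among genes that accompany the wound keratins in activated keratinocytes, 6 rose and none fell. Of 40 listed genes, 30 were above background in at least 1 channel of both arrays, 6 passed the adjusted p, all higher (against 3.52% of all genes higher and 1.78% lower), and none was called. The ratio was positive in both pairs for 26 of the 40, against 33.2% of all genes, and the median was 0.31 against 0.00. Of probes above background in every channel, 6.03% passed the adjusted p upward and 3.25% downward, and 39.1% were positive in both pairs. These counts describe the list and were not tested.

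Those that rose included a growth factor, an alarm protein and cornified envelope proteins. Vegfa, an angiogenic growth factor, had log2 ratios of 0.66 and 1.28 (mean 0.97 ± 0.441, n = 2; adjusted p = 0.0188, limma) at its brighter probe, while its other probe had -0.10 and 0.79 (mean 0.35, adjusted p = 0.375). Sprr2h and Sprr2d, small proline-rich proteins of the cornified envelope, had means of 0.90 ± 0.0377 (adjusted p = 0.0115) and 0.87 ± 0.0788 (adjusted p = 0.0133).

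Sprr1b, the small proline-rich protein that marks keratinocytes under stress, resembled Krt6a. It had 832 and 1660 units in the controls and 3637 and 2430 in the SOX11-induced samples, with log2 ratios of 2.13 and 0.55 (mean 1.34 ± 1.12, n = 2; adjusted p = 0.0383, limma). The control of pair 1 was again the lowest sample. S100a7a, an alarm protein of inflamed epidermis, was dim, with 35.97 and 62.7 units in the controls, of which that of pair 1 was not well above background, and 74.5 and 85.6 in the SOX11-induced samples (mean 0.75 ± 0.425; adjusted p = 0.0492). With dim probes left out both missed the threshold, with an adjusted p of 0.0855 for Sprr1b and 0.0605 for S100a7a. Stfa1 and Gjb2, among the probes with the brightest spots in the list, had mean log2 ratios of 0.12 and 0.60, and neither passed.

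The list of keratin regulators held factors that act on the promoters of these keratins and other genes of their pathways, such as Keap1. Past the adjusted p, 1 rose and 4 fell, or 2.86% and 11.4% of the list, against 3.52% and 1.78% of all genes. Of the 35 listed, 34 were above background, none was called, and the median log2 ratio was 0.02. Of probes above background in every channel, 6.03% passed the adjusted p upward and 3.25% downward, and the shares of the list were not tested. Nfe2l2, an activator of the antioxidant response that also acts on Krt6, Krt16 and Krt17 genes, had log2 ratios of 0.81 and 0.70 (mean 0.76 ± 0.0803, n = 2; adjusted p = 0.0245). Keap1, the protein that holds Nfe2l2 protein down, had -1.06 and -1.01 (mean -1.03 ± 0.0363; adjusted p = 0.00556).

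The nuclear receptors Nr3c1 and Thra, which bind glucocorticoid and thyroid hormone and can repress keratin genes, were lower. Nr3c1 had a mean of -1.04 ± 0.0612 (adjusted p = 0.00546) and Thra one of -1.37 ± 0.0624 (adjusted p = 0.00123), each over the same 2 pairs and with a further probe of the gene that also passed (-1.41 and -0.81). Gata3, a factor of the inner root sheath and epidermis, had -0.76 ± 0.0192 (adjusted p = 0.0232). Under median centring Keap1, Nr3c1 and Gata3 stayed negative (-0.41, -0.42 and -0.10) but missed the adjusted p, and Thra passed it. Relative to the median of probes above background, the values of Keap1, Nr3c1 and Gata3 were -0.95, -0.96 and -0.64. Among other settings, Gata3 also missed limma's adjusted p with median spot brightness (0.0575) and with the authors' own log2 ratios (0.0555). The probes with the brightest spots were those of Jun, Jund and Klf4, at -0.16, 0.04 and 0.14, and none of these passed. A second probe of Stat3, which transmits cytokine signals to Krt6 and Krt16 genes, passed at 0.73 (adjusted p = 0.0373), while its brighter probe had 0.58 (adjusted p = 0.0651).

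Of the 5 wound keratins, Krt75 alone had a promoter in the sequence table given (RefSeq, 250 bases before to 50 after the start). It held no match on either strand to any of 6 motifs. The first was TGANTCA, bound by AP-1, which 7.81% of the 32851 promoters of that length held. The SOX motifs were ACAAAG, held by 18.7%, with ACAATG held by 12.6%. The antioxidant response element was TGACNNNGC, held by 12.4%. The STAT motif was TTCNNNGAA, held by 8.30%. The last was the box TATAAA, held by 13.6%. The absence says only that these letters are not in this window.

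**Figure D5:**
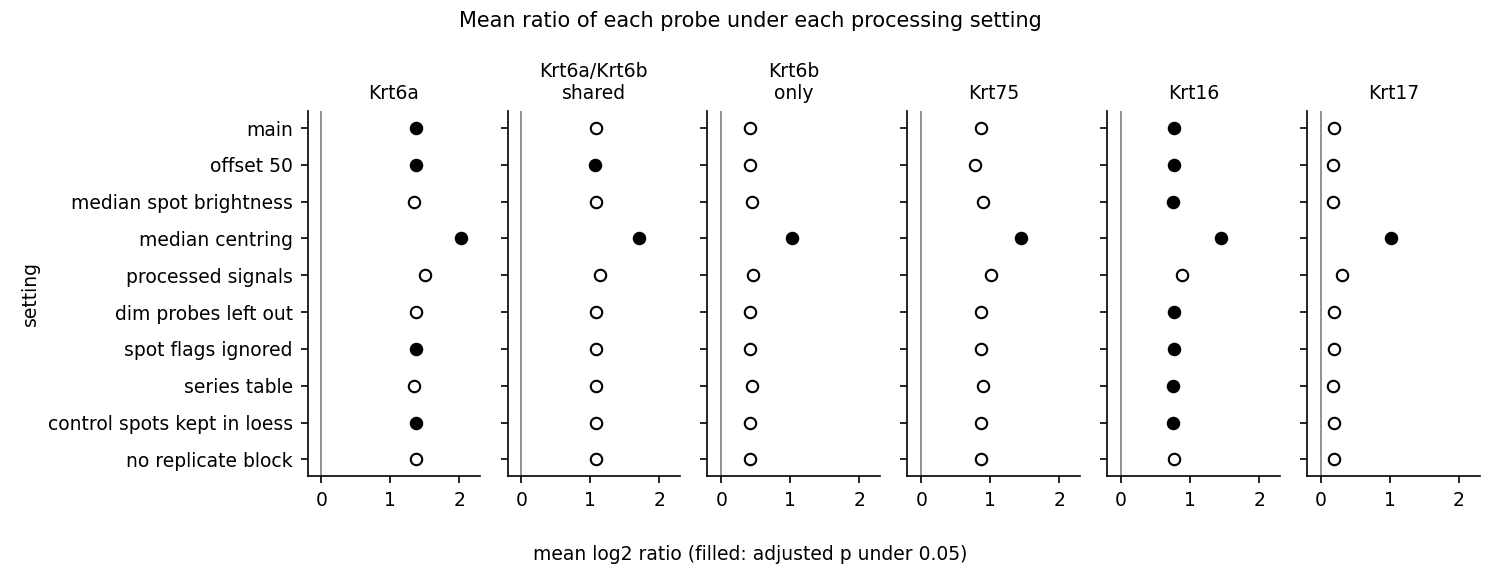
Mean log2 ratio of each probe under the main processing and 9 other settings (rows), filled where the adjusted p was under 0.05. The mean stayed above 0 for every probe in every setting, Krt16 was filled in 8 of the 10 rows and Krt6a in 5, and median centring moved all 6 to the right.

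Every mean ratio kept its sign in all 9 other settings. Median centring of each array in place of loess carried all 6 probes past the adjusted p, but it also moved the median of the 19095 probes above background from 0.02 to 0.53. Relative to that median the means under median centring were 1.497 for Krt6a, 1.17 for the shared probe, 0.49 for the Krt6b-only probe, 0.92 for Krt75, 0.91 for Krt16 and 0.47 for Krt17.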

How the data were processed

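The 2 scanner files hold intensity values of each spot and its local background in both channels, which the authors deposited without normalization. Per the file headers they come from Agilent Feature Extraction 10.7.3.1 with positions on mm9. The deposited series table holds the authors' log2 ratios (normexp, offset 16, loess per the methods) and was used as an alternative. The deposited log10 ratios were not used. Here the mean brightness of each spot was corrected for its median background by normexp with an offset of 16, and each array was centred by loess with control spots at weight 0 (limma 3.58.1, R 4.3.3). Control spots and flagged spots (194 and 186) were dropped, spots of a probe averaged, and an intercept fitted to the 2 ratios of 55676 probes, with eBayes and Benjamini-Hochberg adjustment over all. Levels are intensities after loess and Aquantile scaling. Each gene of a list was read at its brightest probe.

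Each array holds a littermate pair, which the labels state, so that the ratios are paired differences. The number of arrays limits the precision, and no exact test of 2 pairs can pass the threshold without the pooled spread. The script was tested on simulated data. The genes, lists and tests were chosen with earlier results of these data known. Genes were named mainly by 1 rule: every wound keratin probe in full, list genes past an adjusted p of 0.05 (at most 8 a list) with the 3 brightest, and the 3 nearest keratins of each member. Lhx2, Sox9 and some other markers were named outside this rule. Some genes that this rule names are not reported here, and they stay in the counts.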

Additional observations from a re-analysis of the deposited data

How the results depend on the processing

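No mean ratio of a wound keratin probe changed sign in 9 other settings, 1 of them chosen after seeing the data (control spots kept with full weight in the loess curve), which left each of these probes on its side of the adjusted p of 0.05. Krt16 missed the adjusted p with processed signals (0.88, adjusted p = 0.252) and with the channels as 4 single samples, that is without the replicate block of the pair (0.76, adjusted p = 0.151). Krt6a missed it with median spot brightness (1.34), processed signals (1.51), dim probes left out (1.38), the series table (1.34) and no replicate block (1.38), with adjusted p-values of 0.0585, 0.479, 0.0914, 0.0558 and 0.215. The shared probe passed with an offset of 50 (1.07, adjusted p = 0.0443). Median centring brought the shared probe (1.70), the Krt6b-only probe (1.03), Krt75 (1.45) and Krt17 (1.01) past the adjusted p, where 12123 of all 55676 probes passed it upward and 6362 downward, and 746 were called higher and 10 lower. Of the 6 probes, 2 were called under median centring and none otherwise. Those past the adjusted p, 2 in the main setting, numbered 1 with median spot brightness, 6 with median centring, 0 with processed signals, 1 with dim probes left out, 1 with the series table and 0 without the replicate block. Of the 62 other keratin probes, 13 were called under median centring and none otherwise, and those past the adjusted p, 2 in the main setting, numbered 5 with an offset of 50, 42 with median centring, 0 with processed signals and 0 without the replicate block. The 6 activated keratinocyte genes past the adjusted p became 27 with median centring, 0 with processed signals and 1 without the replicate block. The 5 keratin regulators past it became 10 with an offset of 50, 18 with median centring, 0 with processed signals and 2 without the replicate block. The causes were not tested. Over all probes, processed signals gave 0 past the adjusted p in limma, with 8757 at an unadjusted p under 0.05, and no replicate block gave 194 called higher and 42 lower against 204 and 48. Leaving out a pair leaves 1 array, a value with no test: the single ratios ranged from 0.53 to 2.23 for Krt6a, from 0.41 to 1.76 for the shared probe, from -0.56 to 1.40 for the Krt6b-only probe, from -0.18 to 1.91 for Krt75, from 0.65 to 0.87 for Krt16 and from -0.15 to 0.53 for Krt17. The 2 arrays and 1 spot a probe set the limit of precision.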
